A study of Gallus gallus with 6 samples.

Results

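Histone lysine methyltransferases and demethylases are the enzymes that add methyl groups to, and remove them from, lysines of histone tails and of the histone core. Members were taken by name: genes whose symbol in the deposited table was DOT1L, EZH1, EZH2, EHMT1, EHMT2, NSD1, NSD2, NSD3, ASH1L, PHF2 or PHF8, or began with KMT, KDM, SETD, SUV or SMYD and a digit, or with SETDB. The rule found 45 rows among the 15491 genes of the table, 30 for methyltransferases and other SET domain proteins and 15 for demethylases. All 45 passed the filter on low counts, and the lowest count of any member in any library was 42. Of the names in the rule, EHMT2, NSD2, NSD3 and PHF8 matched no row and were not analysed here.

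The series holds mRNA libraries of abdominal fat pads. They came from male meat chickens (broilers) of the Ross strain. Birds of the heat stress group (3 libraries) spent days 21 to 35 of life at 32 °C, and those of the thermoneutral group (3 libraries) spent the same days at 22 °C. Both groups shared the strain, the sex, the diet, a humidity of 50%, light for 24 h a day and individual wire cages from day 14. The labels do not state that each library was 1 chicken, so the spread behind each p-value is that among libraries and may be technical. Adipocyte markers were abundant: the 8 genes of that list, with ADIPOQ, FABP4 and PLIN1 among them, summed to 36251 to 42978 TPM in heat stress and 36392.5 to 40552 TPM in thermoneutral fat (the authors' length-scaled unit).

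Methylation of histone lysines is read by other proteins, and its effect depends on the residue. Methyl groups on H3K4, H3K36 and H3K79 (named by histone and lysine position) accompany active promoters, enhancers and transcribed gene bodies, whereas those on H3K9, H3K27 and H4K20 accompany compacted or silenced chromatin. The methyltransferases draw their methyl group from S-adenosylmethionine, most of them through a SET domain, and the demethylases use either flavin or iron with 2-oxoglutarate. In mouse fat several of them, such as KMT2D, EHMT1 and KDM3A, are known to act in adipocyte formation or energy use.

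The comparison addressed how chronic heat exposure changed expression in fat, here for the enzymes of this family. DOT1L, the H3K79 methyltransferase, was the member that passed over all genes: it was 1.68-fold higher in heat-stressed fat. SETD7 (1.35-fold), SETD2 (1.25-fold), SETD5 (1.2-fold), SETD6 (1.32-fold), NSD1 (1.17-fold) and EZH1 (1.2-fold) were higher in all 3 heat stress libraries than in any thermoneutral one, at an unadjusted p under 0.05 and without passing over all genes. SMYD2 and SMYD3, 1.29-fold and 1.43-fold lower, were below every thermoneutral library in the same way. Among the demethylases, 0 of 15 reached an unadjusted p under 0.05 in edgeR with TMM scaling and all 6 libraries. Of all genes, 18.8% did, in either direction. With library totals in place of TMM scaling, PHF2 and KDM2B reached that p. In DESeq2 0 demethylases passed (9.17% of all genes did).

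By edgeR's quasi-likelihood test with Benjamini-Hochberg adjustment over 14743 genes (FDR, threshold 0.05), 1 of the 45 members was higher (2.22%) and 0 were lower, where 0.115% of all genes tested were called higher, 0.061% lower and 0.176% in either direction. At an unadjusted p under 0.05 there were 7 higher members (15.6%, against 9.56% of all genes) and 2 lower members (4.44%, against 9.2%). The groups did not overlap in 10 members that were higher (22.2%, against 12.6% of all genes) and in 5 that were lower (11.1%, against 12.4%). The members' median log2 fold change was 0.05, beside -0.0045 for all genes tested, and 26 of 45 were positive (57.8%, against 49.4% of all genes). With library totals in place of TMM scaling the members at an unadjusted p under 0.05 were 11 higher and 1 lower. The share of all genes at that p in that fit is not given here, so these counts have no background. In the same fit all genes called at the FDR were 80 higher and 19 lower (17 and 9 with TMM). The median log2 fold change of all genes was 0.018 there. DESeq2 called 5 members higher (11.1%, against 5.08% of all genes) and 0 lower (4.09% of all genes), namely DOT1L, SETD7, SETD2, SETD5 and SETD6. The authors' deposited table held 5 members at an adjusted p under 0.05, all 5 higher. It held 0 members at 2-fold or more with a raw p under 0.05. That table covers the same libraries, so it adds no separate support, and its share of all genes is not given here.

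**Figure D1:**
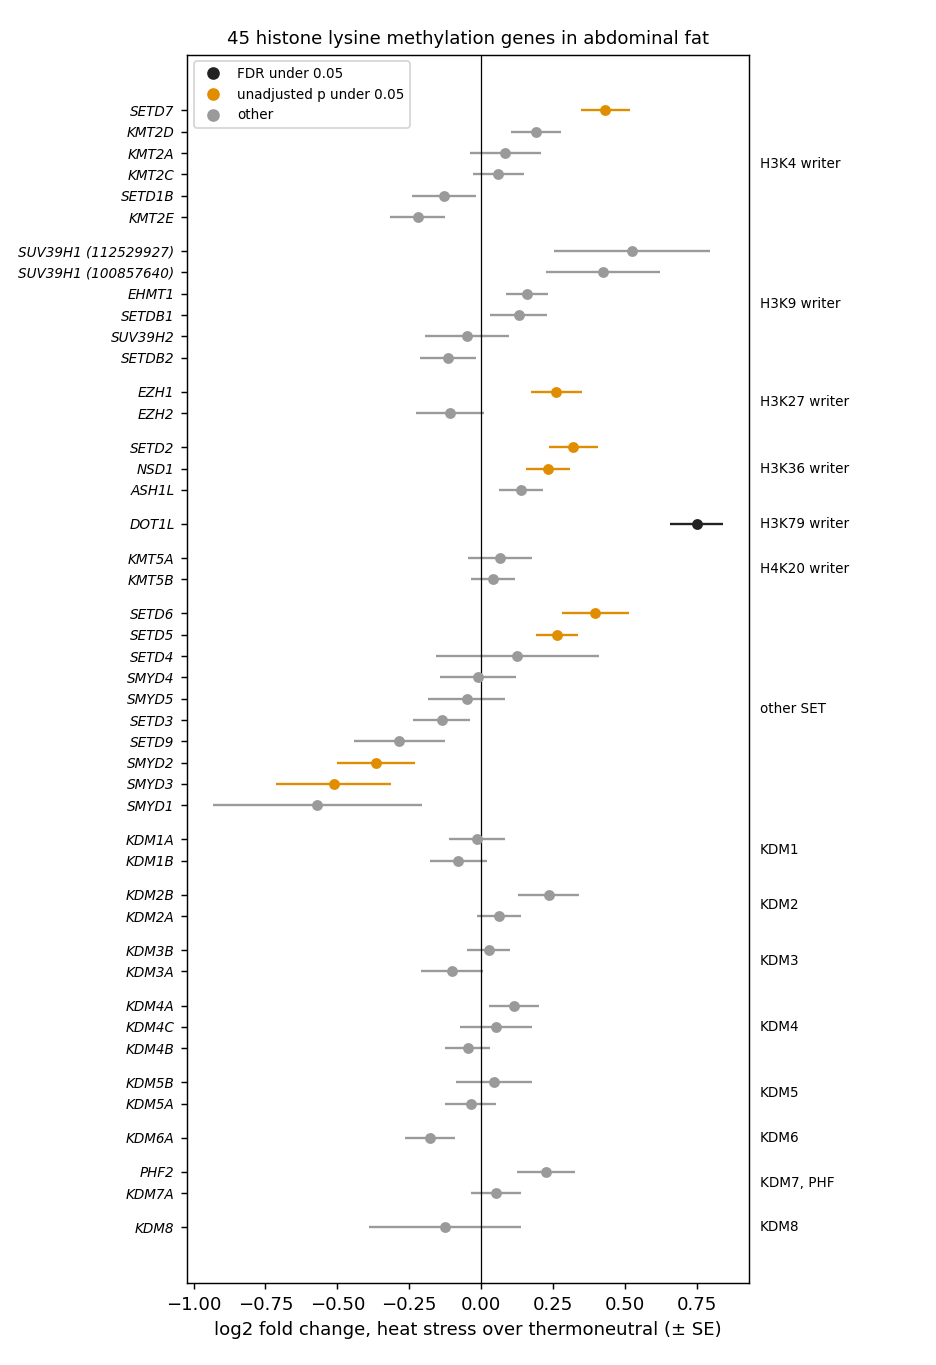
Log2 fold change of heat stress over thermoneutral (x axis, points with ± SE from edgeR) for the 45 members, grouped by the residue they methylate or by demethylase family. DOT1L (0.75 ± 0.09) stands apart at the right, and the 15 demethylases lie between -0.18 and 0.24.

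All libraries of the heat stress group were deeper (38336086 to 45163458 counts) than those of the thermoneutral group (30673333 to 35836632), so depth and group cannot be told apart. Unless TPM is named, a level below is a CPM value: the gene's counts in a library for every 1000000 counts of its total after TMM scaling. In bulk tissue, fewer cells of a type and less RNA per cell cannot be told apart. Markers of adipocytes and of other cells moved with the groups. Of the 8 adipocyte markers, 2 were higher at an unadjusted p under 0.05 (LPL and CEBPA, which DESeq2 also called), 0 were lower, and 4 were higher with no overlap in CPM. Their median log2 fold change was 0.43, although their summed TPM overlapped. Of 28 proliferation markers, all had negative log2 fold changes and 21 had an unadjusted p under 0.05, with summed levels of 215 to 267 TPM in heat stress and 282 to 441 TPM in thermoneutral fat. T cell markers were lower at that p for 10 of 12 (162 to 181 and 240 to 261 TPM), of which CD3D passed the FDR, and stromal markers for 5 of 10, with 1 higher, PDGFRB (14469 to 17892 and 19477 to 23862 TPM). Macrophage and dendritic cell markers were lower for 4 of 10 (4036 to 7123 and 6426 to 6764 TPM) and B cell markers for 4 of 7 (53.8 to 151 and 140 to 244 TPM). Endothelial markers were higher for 8 of 11 (1591 to 1876 and 1189 to 1474 TPM). Smooth muscle and pericyte markers (4 of 8 lower, 1 higher) and erythrocyte markers (3 of 4 lower) overlapped between the groups in summed TPM, and of 10 skeletal muscle markers the 2 with a row, ACTA1 and TNNT3, were both lower. No listed marker is at 0, since the lowest count in the table is 1. The part of these cells in the values of the members was not tested.

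DOT1L is the only known enzyme of its kind for H3K79 in mammals and, unlike the other methyltransferases here, has no SET domain. DOT1L (gene ID 420078) stood at 153, 126 and 135 CPM in heat stress libraries 1, 2 and 3, against 78.7, 81.7 and 85.5 CPM in thermoneutral libraries 1, 2 and 3. The lowest heat stress library was thus well above the highest thermoneutral one, and heat stress 1 was the highest of all. The means were 138 ± 13.4 and 82.0 ± 3.43 CPM (SD, n = 3 each), a log2 fold change of 0.75 ± 0.09 (SE) with FDR = 0.0476 in edgeR. In DESeq2 its adjusted p was 3.98e-09. On the authors' length-scaled values it averaged 26.6 ± 2.4 TPM in heat stress and 15.06 ± 1.015 TPM in thermoneutral fat. The call lay close to the threshold: with 1 library left out its log2 fold change ran from 0.67 to 0.81, but it passed only without heat stress 1 (FDR = 0.0490). Without heat stress 2, heat stress 3, thermoneutral 1, thermoneutral 2 or thermoneutral 3 the FDR was 0.0602, 0.147, 0.0651, 0.131 and 0.147.

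Partners of DOT1L in its elongation complexes were set beside it. Of the 7 listed, all were measured, 0 passed the FDR, and 1 (AFF3) had an unadjusted p under 0.05 (DESeq2 called 1 too, AFF3). AFF3, a nuclear scaffold of the AF4 family, had 3.06, 1.93 and 3.72 CPM in heat stress, against 1.17, 0.923 and 0.398 CPM in thermoneutral fat, which is the largest log2 fold change among all partner genes (1.81 ± 0.46, FDR = 0.112) but rests on levels near 1 CPM. MLLT6, a relative of the DOT1L-binding MLLT10, had 56.8, 60.7 and 53.6 CPM in heat stress and 52.9, 44.4 and 51.0 CPM in thermoneutral fat. MLLT1, MLLT3, MLLT10, AFF1 and AFF4 overlapped between the groups. The list's median log2 fold change was 0.13.

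Of the 6 H3K4 methyltransferases and relatives, 1 (SETD7) had an unadjusted p under 0.05 and 0 passed the FDR in edgeR. SETD7, which adds a single methyl group to H3K4 and also methylates many other proteins, stood at 294, 272 and 277 CPM in heat stress, against 220, 197 and 209 CPM in thermoneutral fat. Its groups lay far apart relative to their spread (281 ± 11.6 and 209 ± 11.8 CPM), with a log2 fold change of 0.43 ± 0.09, FDR = 0.0701 in edgeR and adjusted p = 5.74e-05 in DESeq2. Its FDR in fits without 1 library ran from 0.0991 to 0.192.

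KMT2E, a KMT2 relative whose SET domain is regarded as inactive and whose PHD finger reads methylated H3K4, was the most abundant member per length. KMT2E stood at 358, 335 and 349 CPM in heat stress and 371, 407 and 437 CPM in thermoneutral fat. Every heat stress library was lower than every thermoneutral one, though the difference did not pass (-0.22 ± 0.10, FDR = 0.279). In TPM the groups overlapped (112, 107 and 107 in heat stress, 106, 119 and 129 in thermoneutral fat), and the log2(TPM + 1) difference was -0.12. KMT2D, which marks enhancers, leaned the other way, with 139, 141 and 149 CPM in heat stress, against 123, 115 and 137 CPM in thermoneutral fat (0.19 ± 0.09, FDR = 0.304). Its close relative KMT2C (148 ± 6.03 CPM in heat stress and 142 ± 11.5 CPM in thermoneutral fat) and the founding member KMT2A (36.3 ± 4.31 and 34.2 ± 3.25 CPM) overlapped between the groups. So did the gene listed as SETD1B (22.5 ± 1.07 and 24.6 ± 2.51 CPM), whose gene ID carries the symbol SETD1A in the newer reference table (GRCg7b).

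The shared subunits of the H3K4 enzymes, known as COMPASS, showed a median log2 fold change of 0.03 over 10 measured genes, with 0 past the FDR in edgeR and 0 in DESeq2. RBBP5, a core subunit, had 83.5, 78.3 and 77.8 CPM in heat stress and 65.5, 74.0 and 64.7 CPM in thermoneutral fat, the 1 of the list at an unadjusted p under 0.05 (0.23 ± 0.08, FDR = 0.206). WDR82, the subunit of the SETD1 complexes, was second (0.15 ± 0.08, FDR = 0.329). WDR5, ASH2L and DPY30, the rest of the core, overlapped between the groups.

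The 3 H3K36 methyltransferases with a row were higher in CPM with no overlap between groups, as were 12.6% of all genes. At an unadjusted p under 0.05, 2 of the 3 were higher, as were 9.56% of all genes, and 0 passed the FDR in edgeR. SETD2, the enzyme of H3K36 trimethylation that travels with elongating RNA polymerase II, stood at 214, 216 and 242 CPM in heat stress, against 177, 176 and 185 CPM in thermoneutral fat. NSD1, which adds the lower methylation states, stood at 107, 106 and 111 CPM in heat stress, against 87.3, 89.6 and 98.5 CPM in thermoneutral fat. ASH1L, an antagonist of polycomb silencing, stood at 197, 202 and 200 CPM in heat stress, against 182, 172 and 190 CPM in thermoneutral fat. In each of the 3 genes the lowest heat stress library exceeded the highest thermoneutral one, and SETD2 was highest in heat stress 3. Their log2 fold changes were 0.32 ± 0.09 for SETD2 (FDR = 0.118, DESeq2 adjusted p = 0.0118), 0.23 ± 0.08 for NSD1 (FDR = 0.179) and 0.14 ± 0.08 for ASH1L (FDR = 0.385). Summed over the 3 genes, the level was 110 to 117 TPM in heat stress and 87.5 to 93.6 TPM in thermoneutral fat. On log2(TPM + 1) the median of all genes tested was itself 0.08 higher in heat stress.

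**Figure D2:**
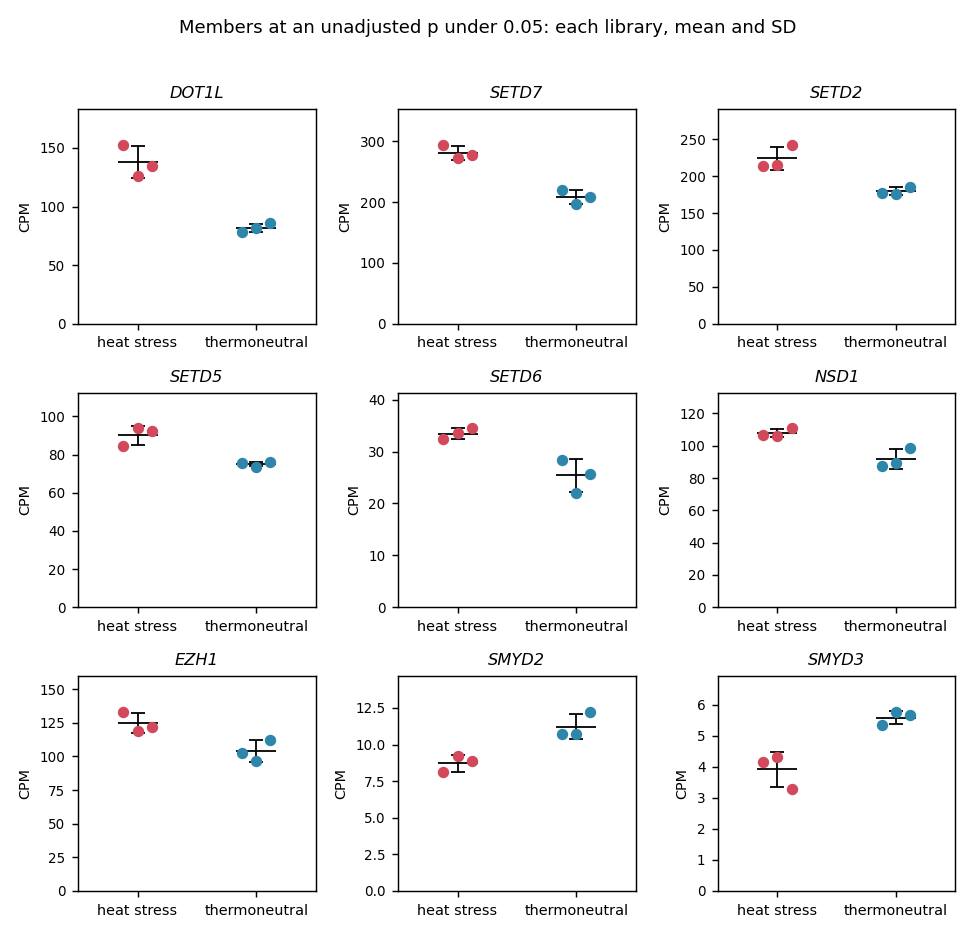
CPM (y axis, from 0) in each library of the 9 members at an unadjusted p under 0.05, heat stress left and thermoneutral right, with points for libraries and a bar with whiskers for mean and SD (n = 3 each). In none of the 9 panels do the groups overlap, and SMYD2 and SMYD3 are the 2 panels with heat stress lower. The panels were picked by p on the same libraries, so the lack of overlap adds no support to the p-values.

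The H3K27 methyltransferases EZH1 and EZH2 are the interchangeable catalytic subunits of polycomb repressive complex PRC2, EZH1 known from resting and EZH2 from dividing cells. EZH1 stood at 133, 119 and 122 CPM in heat stress, against 103, 96.7 and 113 CPM in thermoneutral fat (log2 fold change 0.26 ± 0.09, FDR = 0.183). EZH2 stood at 20.3, 19.3 and 21.9 CPM in heat stress, against 20.01, 24.8 and 21.4 CPM in thermoneutral fat (-0.11 ± 0.12, FDR = 0.677). EZH1 thus lay above its thermoneutral range, while EZH2 overlapped. The proliferation markers summed to 267, 252 and 215 TPM in heat stress 1, 2 and 3. In thermoneutral 1, 2 and 3 they summed to 296, 441 and 282 TPM. A link with EZH2 was not tested. Per length EZH1 was the more abundant in both groups, at 57.5 ± 3.04 TPM in heat stress and 44.7 ± 3.50 TPM in thermoneutral fat, beside 15.3 ± 0.729 and 15.6 ± 2.15 TPM for EZH2.

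Among the other PRC2 subunits (9 measured, 0 past the FDR in edgeR), 1 was higher and 2 lower at an unadjusted p under 0.05, and DESeq2 called 1, SUZ12. SUZ12, the scaffold that both EZH proteins need, had 30.8, 36.3 and 38.9 CPM in heat stress, against 44.9, 52.1 and 49.7 CPM in thermoneutral fat (-0.47 ± 0.11, FDR = 0.0987, DESeq2 adjusted p = 0.0126). JARID2, a PRC2 cofactor, had 68.6, 78.2 and 82.9 CPM in heat stress and 61.8, 60.0 and 64.8 CPM in thermoneutral fat (0.30 ± 0.09, FDR = 0.158). SUZ12 and EZH1 therefore differed in sign although both belong to PRC2; whether the 2 differences differ from each other was not tested. EED, RBBP4 and MTF2 overlapped between the groups. In PRC1, a complex of which some forms bind methylated H3K27, 0 of 16 subunits passed the FDR. At an unadjusted p under 0.05, 1 was higher and 2 were lower. PCGF3 (-0.27 ± 0.07, FDR = 0.11) and the methyl-lysine reader CBX7 (-0.53 ± 0.15, FDR = 0.139) were the 2 of smallest p and the 2 that DESeq2 called.

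H3K9 methyltransferases gave 0 members at an unadjusted p under 0.05 in edgeR and 0 calls in DESeq2. SUV39H1, the enzyme of heterochromatin, had 2 rows in the table under different gene IDs, so reads may have been split between near-identical copies and its values are uncertain. The row of gene ID 100857640 stood at 64.5, 55.1 and 54.0 CPM in heat stress, against 55.1, 31.3 and 43.2 CPM in thermoneutral fat (0.42 ± 0.20, FDR = 0.31). The row of gene ID 112529927 stood at 5.80, 4.93 and 3.28 CPM in heat stress, against 2.83, 3.41 and 3.50 CPM in thermoneutral fat. In CPM both rows overlapped between the groups, the first because heat stress 3 lay under thermoneutral 1. In TPM the first row did not overlap (68.2 to 82.4 in heat stress, 37.8 to 64.9 in thermoneutral fat), but on log2(TPM + 1) the median of all genes tested was itself 0.08 higher in heat stress. The log2 fold change of the first row was 0.23 without thermoneutral 2 and 0.64 without thermoneutral 1. EHMT1, a methyltransferase of H3K9 at silenced genes, was the exception that did not overlap, with 95.5, 95.6 and 87.3 CPM in heat stress, against 81.7, 81.4 and 86.2 CPM in thermoneutral fat (0.16 ± 0.07, FDR = 0.308). Of all genes, 12.6% were higher without overlap. SETDB1 (56.2 ± 5.17 CPM in heat stress and 51.4 ± 3.55 CPM in thermoneutral fat), SETDB2 (22.4 ± 0.3 and 24.3 ± 1.65 CPM) and SUV39H2 (20.9 ± 3.36 and 21.6 ± 1.96 CPM) overlapped.

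Of the 7 measured HP1 proteins and other H3K9 partners, 0 passed the FDR in edgeR or in DESeq2. UHRF1, which links H3K9 methylation to DNA methylation at replication, was the 1 gene at an unadjusted p under 0.05, with 12.9, 15.1 and 14.1 CPM in heat stress, against 17.4, 29.7 and 17.6 CPM in thermoneutral fat (-0.62 ± 0.23, FDR = 0.206). Its highest library was thermoneutral 2. The HP1 gene CBX1 (0.14 ± 0.08, FDR = 0.394) came next.

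The H4K20 enzymes KMT5A, which acts in mitosis, and KMT5B, which builds the higher methylation states, overlapped between the groups. KMT5B, the more abundant per length, stood at 53.9, 54.2 and 52.0 CPM in heat stress and 53.5, 53.6 and 48.6 CPM in thermoneutral fat (0.04 ± 0.08, FDR = 0.82). KMT5A averaged 22.9 ± 2.58 CPM in heat stress and 21.9 ± 0.383 CPM in thermoneutral fat.

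Of the 10 other SET domain proteins, several of which act mainly on non-histone targets, 2 were higher and 2 lower at an unadjusted p under 0.05. That is 20% in each direction, against 9.56% of all genes higher and 9.2% lower. SETD5, whose own catalytic activity is debated, stood at 84.5, 93.7 and 92.4 CPM in heat stress, against 75.4, 73.7 and 76.1 CPM in thermoneutral fat. SETD6, which in human cells methylates the NF-kappa-B subunit RELA, stood at 32.4, 33.5 and 34.4 CPM in heat stress, against 28.4, 22.0 and 25.8 CPM in thermoneutral fat. Both were higher in every heat stress library (SETD5 0.26 ± 0.07, FDR = 0.128, DESeq2 adjusted p = 0.0394; SETD6 0.40 ± 0.12, FDR = 0.138, DESeq2 adjusted p = 0.0413).

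SMYD2, a methyltransferase of p53 in human cells, stood at 8.10, 9.19 and 8.86 CPM in heat stress, against 10.7, 10.7 and 12.2 CPM in thermoneutral fat (-0.36 ± 0.14, FDR = 0.214). SMYD3, a mainly cytoplasmic enzyme in human tumours, stood at 4.16, 4.30 and 3.28 CPM in heat stress, against 5.34, 5.76 and 5.66 CPM in thermoneutral fat (-0.51 ± 0.20, FDR = 0.233). At its level of under 1 TPM the difference was -0.15 on log2(TPM + 1) and -0.10 on log2(FPKM + 1), scales whose added 1 shrinks low values. Each was lower in all 3 heat stress libraries than in any thermoneutral one. SETD9 (7.92 ± 0.677 CPM in heat stress and 9.65 ± 1.18 CPM in thermoneutral fat) did not overlap either, in the same direction. SMYD1, a factor of striated muscle, was near 1 to 2 CPM in both groups and had the most negative log2 fold change of the family (-0.57 ± 0.36, FDR = 0.451); the skeletal muscle gene ACTA1 was lower beside it (10.9, 22.7 and 17.7 CPM in heat stress, against 29.7, 58.0 and 33.9 CPM in thermoneutral fat). SETD3, the histidine methyltransferase of actin and the most abundant of this class per length, stood at 34.4, 34.9 and 39.8 CPM in heat stress and 42.8, 39.9 and 37.3 CPM in thermoneutral fat, with overlap. SETD4, SMYD4 and SMYD5 also overlapped, with log2 fold changes of 0.13 ± 0.28, -0.01 ± 0.13 and -0.05 ± 0.13.

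For the demethylases the 15 log2 fold changes had a median of 0.03, 8 positive and 7 negative, and their summed level was 922 to 957 CPM in heat stress and 897 to 956 CPM in thermoneutral fat. In CPM, KDM6A was the exception whose groups did not overlap (6.67% of the 15, where 12.4% of all genes were lower without overlap). It removes methyl groups from H3K27 within the KMT2C and KMT2D complexes, and it stood at 113, 124 and 123 CPM in heat stress, against 148, 128 and 132 CPM in thermoneutral fat (-0.18 ± 0.09, FDR = 0.324). Its TPM values overlapped (28.9, 34.9 and 35.0 in heat stress, 35.9, 31.5 and 35.9 in thermoneutral fat), with a difference of -0.065 on log2(TPM + 1), and without thermoneutral 1 its log2 fold change was -0.11. By contrast, the 30 methyltransferases and other SET domain proteins summed to 2310 to 2378 CPM in heat stress and 2037 to 2203 CPM in thermoneutral fat, with a median log2 fold change of 0.07; the difference between the 2 kinds of enzyme was not tested. In summed TPM the demethylases did not overlap (325 to 349 TPM in heat stress, 295 to 315 TPM in thermoneutral fat), on a scale where the median of all genes tested was itself 0.08 higher on the log2(TPM + 1) scale in heat stress.

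Within the KDM1 family, which uses flavin, KDM1A stood at 80.3, 101 and 89.3 CPM in heat stress and 91.9, 88.4 and 92.8 CPM in thermoneutral fat (-0.01 ± 0.10). KDM1B averaged 30.5 ± 2.64 CPM in heat stress and 32.2 ± 0.703 CPM in thermoneutral fat. Neither separated the groups. Of 12 measured partners of KDM1A, 0 passed the FDR in edgeR, 1 was higher and 2 lower at an unadjusted p under 0.05, and DESeq2 called those 3. GSE1, a subunit of its corepressor complex, had 32.8, 41.5 and 42.7 CPM in heat stress, against 22.7, 25.9 and 23.7 CPM in thermoneutral fat (0.69 ± 0.13, FDR = 0.0652, DESeq2 adjusted p = 0.000326). HDAC2, the histone deacetylase of that complex, had 113, 107 and 106 CPM in heat stress, against 146, 148 and 128 CPM in thermoneutral fat (-0.37 ± 0.08, FDR = 0.0862, DESeq2 adjusted p = 0.00334). GFI1, a blood cell repressor that recruits it, was the third, with 2.62 to 3.22 CPM in heat stress and 4.44 to 4.81 CPM in thermoneutral fat.

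KDM2B, which brings a variant PRC1 to unmethylated CpG islands, stood at 54.4, 58.4 and 62.6 CPM in heat stress and 55.7, 48.2 and 45.1 CPM in thermoneutral fat (0.24 ± 0.11, FDR = 0.292), the largest positive value among demethylases. PHF2, a demethylase of H3K9, stood at 54.6, 59.1 and 65.2 CPM in heat stress and 51.2, 47.0 and 54.8 CPM in thermoneutral fat (0.23 ± 0.10, FDR = 0.288). In both genes 1 thermoneutral library lay above the lowest heat stress library, so the groups overlapped in CPM. In TPM they did not overlap for KDM2B (23.7 to 27.4 in heat stress, 18.1 to 22.6 in thermoneutral fat). Nor did they for PHF2 (29.2 to 34.6 and 25.1 to 27.5 TPM), on the scale where the median of all genes was itself higher. KDM3A, a demethylase of H3K9 known from mouse fat, stood at 61.5, 60.6 and 54.6 CPM in heat stress and 70.3, 63.8 and 55.5 CPM in thermoneutral fat (-0.10 ± 0.11). On the authors' TPM its sign turned, with 25.2 ± 2.01 TPM in heat stress and 22.1 ± 2.39 TPM in thermoneutral fat, so no direction is given for it.

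KDM5B, an eraser of H3K4 methylation, was the most abundant demethylase per length and stood at 124, 108 and 110 CPM in heat stress and 99.6, 99.2 and 132 CPM in thermoneutral fat. Its highest and lowest libraries were both thermoneutral. KDM4B, of the family that acts on H3K9 and H3K36, stood at 63.0, 70.9 and 64.8 CPM in heat stress and 66.7, 67.7 and 70.7 CPM in thermoneutral fat. KDM8, a little studied relative, had 5.15, 4.06 and 3.46 CPM in heat stress and 5.90, 3.82 and 4.12 CPM in thermoneutral fat. These 3 overlapped in CPM, as did KDM2A, KDM3B, KDM4A, KDM4C, KDM5A and KDM7A, whose log2 fold changes lay between -0.04 and 0.11 with SE of 0.07 to 0.13. In TPM, where the median of all genes was itself higher in heat stress, KDM2A did not overlap (21.5 to 21.7 in heat stress, 17.8 to 20.2 in thermoneutral fat). Nor did KDM3B, KDM4A and KDM7A, which were higher in heat stress on that scale too.

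**Figure D3:**
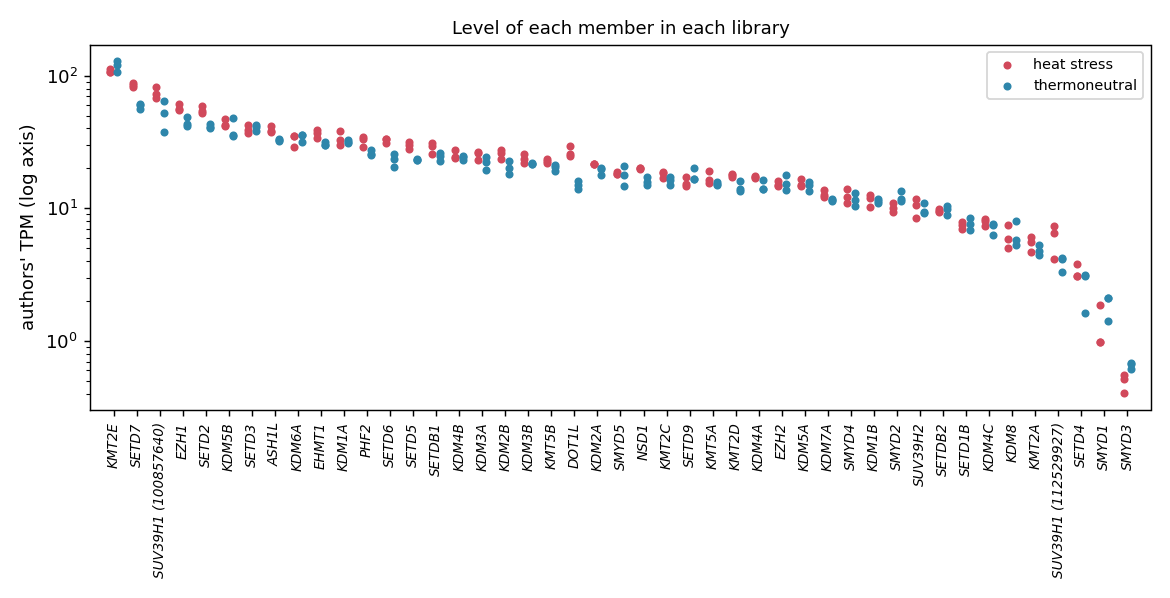
The authors' TPM (y axis, log scale) of each member in each library, members ordered by mean level; red points are heat stress and blue points thermoneutral. KMT2E is highest (113 TPM over all libraries) and SMYD3 lowest (0.574). The red points of SETD7, EZH1, SETD2 and DOT1L stand clear of the blue ones, as do those of SETD5, SETD6, NSD1, PHF2 and further members. The median of all genes tested was itself 0.08 higher in heat stress on log2(TPM + 1).

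Levels per length spanned the family widely. Mean TPM over all 6 libraries ran from 0.574 (SMYD3) to 113 (KMT2E), with a median of 18.1, beside 14.6 for all genes tested, and 36 of 45 members were at 10 TPM or more. After KMT2E the order was SETD7 (85.3 ± 3.19 TPM in heat stress and 59.0 ± 2.63 TPM in thermoneutral fat), SUV39H1 of gene ID 100857640 (74.3 ± 7.33 and 51.6 ± 13.5 TPM), EZH1 and SETD2 (55.1 ± 3.32 and 41.3 ± 1.601 TPM). Within heat-stressed fat EZH1 and SETD2 did not differ beyond their spread, nor did they in thermoneutral fat. SMYD3's TPM was low for its counts, equal to a length of 18545 bases implied by counts and FPKM, so its level per length is uncertain.

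Several members are encoded by very long transcripts, so values were set beside all genes of like implied length. The 12 members of 8 kb and over had a median log2 fold change of 0.10 with 9 positive. The 1708 genes of that length had a median of -0.01, and 47.7% of them were positive. SMYD3 (-0.51) is counted among the 12 by its implied length of 18545 bases, which left its level per length uncertain. For 4 to 8 kb the medians were 0.04 for 20 members and 0.0092 for 4179 genes. In the 9 members of 2 to 4 kb the median was -0.05, beside 0.0037 for 5035 genes, and in the 4 members under 2 kb it was 0.15, beside -0.02 for 3821 genes. Of the 45 gene IDs, 43 matched the GRCg7b reference, and the 2 that did not were the SUV39H1 rows. In that reference 18 overlapped another gene, with SETD5, ASH1L, PHF2 and KDM2B among them. DOT1L, SETD7, SETD2, SETD6, NSD1, EZH1, SMYD2 and SMYD3 did not overlap another gene. The kit keeps strand, but whether counting used it is not given in the sources used here, so reads of overlapping genes cannot be assigned with certainty.

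PRDM proteins carry a PR domain related to SET, and some methylate H3K9. Of 11 measured, 1 was higher at the FDR (9.09%, against 0.115% of all genes) and 5 at an unadjusted p under 0.05 (45.5%, against 9.56%), with 0 lower. The list's median log2 fold change was 0.28. Like the other lists, it was chosen with earlier results of these data known. MECOM, known as PRDM3, rose to 94.9, 75.5 and 89.2 CPM in heat stress, against 50.1, 48.8 and 49.2 CPM in thermoneutral fat (0.81 ± 0.10, FDR = 0.0476 in edgeR). It passed in none of the 6 edgeR fits with 1 library left out (FDR = 0.0561 to 0.160). PRDM16, the determinant of brown fat in mice, had 35.8, 34.4 and 33.9 CPM in heat stress, against 19.1, 11.7 and 21.8 CPM in thermoneutral fat (0.98 ± 0.22, FDR = 0.0858, DESeq2 adjusted p = 0.00114). Both genes separated the groups completely. Endothelial markers were higher beside them, as given above, and their part was not tested.

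Remaining partner lists held 0 genes past the FDR in edgeR. Among 21 measured enzymes of methyl donor and cofactor supply, 2 were higher and 1 lower at an unadjusted p under 0.05, and DESeq2 called 1 higher (BHMT) and 1 lower. BHMT, which remakes methionine from homocysteine with betaine, had 24.1, 19.3 and 19.8 CPM in heat stress, against 11.2, 7.26 and 7.65 CPM in thermoneutral fat (1.27 ± 0.20, FDR = 0.0548, DESeq2 adjusted p = 1.55e-06). The list's median log2 fold change was -0.0072. Of 10 measured JmjC proteins outside the KDM and PHF names, 2 were higher at an unadjusted p under 0.05, HR, a corepressor of nuclear receptors (0.66 ± 0.19, FDR = 0.141), and JARID2, and DESeq2 called HR. Of 5 measured arginine methyltransferases, 0 had an unadjusted p under 0.05 or a DESeq2 call, PRMT7 (-0.13 ± 0.13) and PRMT8 (-0.21 ± 0.24) being nearest. Over all 107 partner genes, 13 were higher (12.1%, against 9.56% of all genes) and 8 lower (7.48%, against 9.2%) at an unadjusted p under 0.05, shares close to the background.

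**Figure D4:**
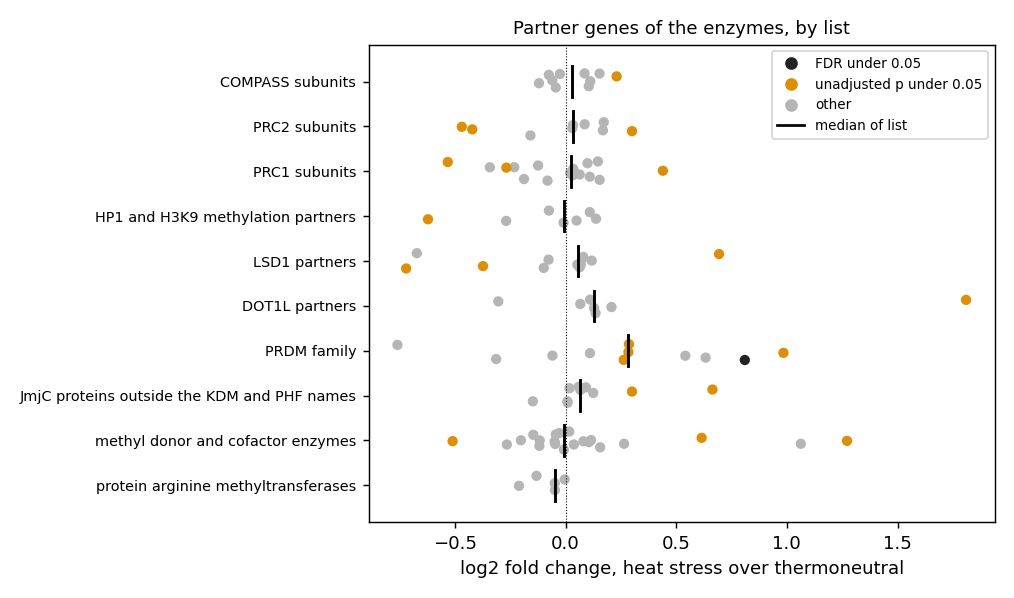
Log2 fold change of heat stress over thermoneutral (x axis) of each partner gene by list, with a black bar at each list's median; vertical scatter within a list has no meaning. Medians lie between -0.05 and 0.13 except in the PRDM family (0.28), and AFF3 (1.81) and BHMT (1.27) are the points farthest to the right.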

How the data were processed

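Libraries were prepared from TRIzol-extracted RNA using a TruSeq kit that selects mRNA and keeps strand, per the labels' protocols. The submitters' processing notes name GRCg6a as build and list StringTie 2.1.3b, HISAT2 2.1.0 and Bowtie2 2.3.4.1, without saying which did what. The table holds, per the file headers, raw counts, FPKM and TPM for each gene and library. It also holds the authors' fold (a score with a minus sign where heat stress is lower) and, per the file headers, a raw and an adjusted p-value.

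From the counts, edgeR 4.0.16 (R 4.3.3) was run on all genes with filterByExpr, TMM scaling and group as the only term (quasi-likelihood F test, Benjamini-Hochberg). The SE is the absolute log2 fold change over the square root of F. The alternatives were DESeq2 1.42.0, other scalings and filters, a replicate block, limma 3.58.1 on log2(TPM + 1), log2(TPM + 0.1) and log2(FPKM + 1), and each library left out. edgeR, DESeq2 and limma were each tested on simulated counts. With 3 against 3 libraries an exact permutation test cannot go below p = 0.1, so none was used.

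Members and gene lists were chosen with earlier results of these data known. Values per library are given by rule for members at an unadjusted p under 0.05 and for the most abundant of each class. Those of KMT2D, ASH1L, EHMT1, EZH2 and the SUV39H1 row of gene ID 112529927 were added outside that rule, with their values known. In partner lists the rule names genes that passed and, of each list, the 2 with the lowest p. Other partner and marker genes named were picked after their values were seen. The table lists 0 genes with a count of 0, so genes off in any library cannot be seen. The files' 36 further columns of values per library were not used. Sequences and coordinates are not given. A gene that the naming rule would name is not reported here.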

Additional observations from a re-analysis of the deposited data

How the results depend on the processing

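All 9 members at an unadjusted p under 0.05 kept their sign in all 15 alternatives, DOT1L between 0.66 and 0.81 and past its threshold in 8 of them. SMYD3 ran from -0.58 to -0.10. The demethylases PHF2 and KDM2B had 0.25 ± 0.09 (FDR = 0.223) and 0.26 ± 0.10 (FDR = 0.242) with library totals in edgeR. In that fit SMYD2, the 1 lower member at an unadjusted p under 0.05, had FDR = 0.246, so PHF2 and KDM2B were under that p too. On log2(TPM + 1) PHF2 and KDM2B had 0.30 ± 0.09 and 0.33 ± 0.11. The count of 0 demethylases at an unadjusted p under 0.05 was taken with TMM scaling and all 6 libraries. It did not hold with library totals, and counts in the other fits are not given here. With TMM scaling PHF2 had 0.29 ± 0.10 (FDR = 0.207 in edgeR) without heat stress 1. Without thermoneutral 1, KDM2B had 0.33 ± 0.10 (FDR = 0.187 in edgeR). Members higher at the FDR numbered 5 in DESeq2, 2 in limma on log2(TPM + 1) and on log2(TPM + 0.1), 0 in limma on log2(FPKM + 1), and 0 to 1 with 1 library left out; all genes past it numbered 1352, 202, 222, 35 and 3 to 35 in the same order, 99 with library totals and 133 with 1 CPM in all libraries, against 26. Members at an unadjusted p under 0.05 were 11 higher and 1 lower with library totals, and 13 higher and 0 lower on either TPM scale. They were 1 lower on FPKM, and 5 to 9 higher and 0 to 1 lower with 1 library left out. Shares of all genes at that p in these fits are not given here, so the counts cannot be read as a trait of the members. On log2(TPM + 1) all genes past the FDR were themselves 184 higher and 18 lower. The median over members was 0.14 on log2(TPM + 1) and 0.16 on log2(TPM + 0.1), where all genes had 0.08 and 0.09, and 0.018 to 0.071 with 1 library left out (lowest without thermoneutral 2). Partner genes past the FDR were 7 higher and 6 lower in DESeq2, 2 higher with library totals or 1 CPM, and 0 to 1 higher with 1 library left out, where 8 to 12 were higher at an unadjusted p under 0.05. Of the 21 members followed, 6 turned sign, none of them past a threshold in any alternative. KDM1A had 0.0085 with library totals, 0.078 on log2(TPM + 1), 0.080 on log2(TPM + 0.1) and -0.10 to 0.063 with 1 library left out. KDM3A had 0.18, 0.19 and 0.10 on the 2 TPM scales and FPKM, and KDM4B 0.051 and 0.053 on the TPM scales. With 1 library left out KDM5B ran from -0.033 to 0.199, KDM8 from -0.292 to 0.089 and KMT5B from -0.0033 to 0.063. The cause was not tested; fits with 1 library left out hold fewer samples.

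Between same-numbered libraries of the 2 groups the correlations of deviations over genes were 0.08, 0.25 and 0.04. Heat stress 1 and heat stress 2 correlated best with the thermoneutral library of the same number, and heat stress 3 with thermoneutral 1 (0.11). Deviations from a mean of 3 libraries cancel within a group, so these correlations cannot decide whether the numbers pair the libraries. With the replicate block 0 members were past the FDR (DOT1L 0.75, FDR = 0.0609), 95 of all genes were, and 0 members were lower at an unadjusted p under 0.05.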
